A study of Canis lupus familiaris with 2 samples.

Results

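MicroRNAs cfa-miR-146a, cfa-miR-146b, cfa-miR-155 and cfa-miR-21 (named without the dog prefix from here on), which are known to be switched on by inflammatory and stress signalling, were read on 2 arrays of SNP canine mammary gland tumour cells. The members were all array probes carrying 1 of these names with any arm suffix, which gave 4 probes, 1 per miRNA, out of 291 dog miRNA probes. The rule itself uses names and no measured values, but it was set with earlier results of these data known. The spheroid group was 1 total RNA sample of cells selected because they floated in the medium and then grown without added basement membrane or matrix material, and the monolayer group was 1 total RNA sample of adherent cells in RPMI-1640 with fetal bovine serum. Both were harvested with trypsin near confluence, with an RNA integrity of 9.7 for the spheroids and 9.8 for the monolayer. The effect of selecting floating cells and that of the culture form cannot be told apart, and each group had 1 sample and 1 array, so differences are given by size, without replicates and without a test.

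In human and mouse cells, the transcription factors NF-kB, AP-1 and STAT3 raise transcription of these miRNA genes when cells meet cytokines, bacterial products or stress. miR-146a and miR-146b come from separate genes and share a seed, the stretch that pairs with target mRNAs, and they repress the adaptor mRNAs TRAF6 and IRAK1, which closes a negative feedback loop on NF-kB. miR-155 is processed from the BIC transcript and represses SOCS1 and INPP5D, which themselves restrain cytokine signalling. miR-21 is abundant in many carcinomas and represses PDCD4. These are roles known from other species and were not measured here. All 4 names were found among the genes that RefSeq lists for dog assembly UU_Cfam_GSD_1.0. The 4 genes lie on 4 different chromosomes in it, and 0 of the genes overlapping or flanking them there are miRNA genes, so none of the members shares a miRNA cluster with its listed neighbours.

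Raw intensities were read against the blank spots of the same array. A miRNA was called detected when its spot was brighter than the blank spots' mean plus 2 SD, a limit of 79.8 on the spheroid array and 89.8 on the monolayer array. By that rule 201 of the 291 miRNAs (69.1%) were detected in the spheroids and 180 (61.9%) in the monolayer, with 178 on both (61.2%). All 4 members were detected in the spheroids and 2 of the 4, miR-155 and miR-21, in the monolayer. miR-146a and miR-146b were detected in the spheroids only, a pattern that 7.9% of all array miRNAs had, whereas 0.687% were detected in the monolayer only. These 2 shares rest on unequal limits. In the units of the authors' deposited values, the limit was 1.54 on the spheroid array and 2.89 on the monolayer array. Dimmer miRNAs could thus be detected in the spheroids, and the part of this in the shares was not tested. The same limit was passed by 8.1% of the 1408 blank spots on the spheroid array and 7.1% on the monolayer array. A miRNA just above the limit is thus not set apart from the brightest blanks.

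miR-146a, the feedback inhibitor of NF-kB signalling, had a raw intensity of 171 on the spheroid array, against 83.9 on the monolayer array. The spheroid spot lay 60.7 blank SDs above the blank mean, and 0 of 1408 blank spots on that array were brighter. The monolayer spot lay at -0.50 blank SDs, and 895 of the 1408 blank spots there were brighter. The signal was thus well clear of the blanks in the spheroids and inside their spread in the monolayer. In the authors' deposited values miR-146a stood at 46.8 in the spheroids and had an empty cell in the monolayer, with a blank SD of 0.771 deposited units on the spheroid array. Against the dimmest detected miRNA of the monolayer, at 3.06 deposited units, that was at least 15.3-fold higher.

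miR-146b, the second member of the miR-146 pair, had a raw intensity of 122 on the spheroid array, against 81.5 on the monolayer array. It lay 29.4 blank SDs above the blank mean in the spheroids and at -1.51 blank SDs in the monolayer, where 1269 of the 1408 blank spots were brighter and in the spheroids 0 were. Its cell in the deposited table was empty for the monolayer and held 22.6 for the spheroids, which by the same measure was at least 7.39-fold higher. Both members of the pair therefore had the same pattern, with a clear spheroid spot and a monolayer spot among the blanks. Whether the probes of the pair read 1 shared signal was not tested.

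**Figure D1:**
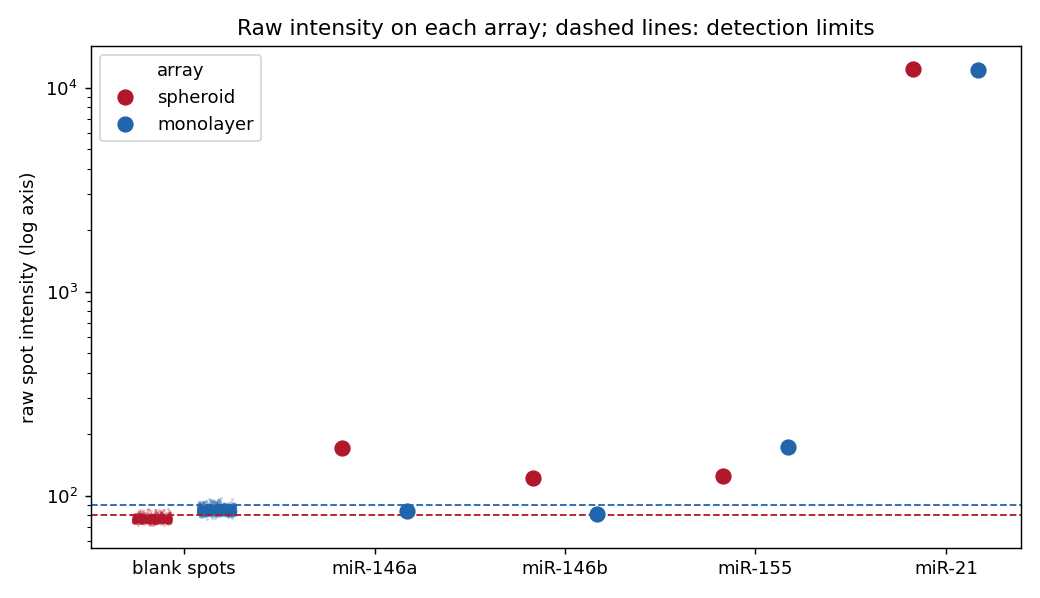
Raw spot intensity on a log axis for the 4 miRNAs and the 1408 blank spots, with the spheroid array in red on the left of each pair and the monolayer array in blue on the right; dashed lines mark the detection limits (79.8 spheroid, 89.8 monolayer). The monolayer spots of miR-146a (83.9) and miR-146b (81.5) lie among the blanks, while their spheroid spots (171 and 122) do not.

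The 2 spots were also set against the surface around them. In the array block that holds miR-146a, 44 blank spots averaged 77.6 ± 2.26 in the spheroids and 87.4 ± 2.35 in the monolayer (SD over spots), and the brightest of them reached 83.6 in the spheroids and 91.9 in the monolayer. The brightest of the 3 spots touching miR-146a was at 94.1 in the spheroids and 95.7 in the monolayer. In the block of miR-146b, the 44 blank spots averaged 76.3 ± 1.58 in the spheroids and 81.9 ± 2.48 in the monolayer. The brightest of the 5 spots touching miR-146b was at 423 in the spheroids and 231 in the monolayer, above miR-146b on each array. The part of neighbouring spots in the miR-146b signal was not tested. No spot carried a scanner warning. The scanner column headed as background, which was not subtracted, stood at 0.569 of the spot for miR-146a in the spheroids and 0.894 in the monolayer, and the median over all miRNAs was 0.820 in the spheroids and 0.817 in the monolayer. For miR-146b it stood at 0.727 in the spheroids and 0.837 in the monolayer.

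A total of 23 miRNAs had this spheroid-only pattern, and miR-146a and miR-146b were the 2 farthest above the blanks. The other 21 had deposited spheroid values of 1.60 to 11.5 with a median of 2.85, and lay at most 14.9 blank SDs above the blank mean. The next 3 by lower bound were miR-660, miR-421 and miR-152. miR-660 had a raw intensity of 99.8 in the spheroids and 89.8 in the monolayer, just under the limit there, which gave at least 3.74-fold in deposited values. miR-421 lay 12.4 blank SDs above the blank mean in the spheroids and 1.30 in the monolayer, and miR-152 lay 11.5 above it in the spheroids and 1.18 in the monolayer. Among the 23, miR-146 was the only number (1 in all) under which 2 lettered relatives appeared. How many lettered families on the array could have had this pattern was not counted, so nothing particular to the pair is read from it. A deposited bound of 2-fold or more was reached by 8 of the 23, and 11 had none above 1, since their spheroid values were under the monolayer floor. Of the 23, 10 lay more than 5 blank SDs above the blank mean in the spheroids.

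**Figure D2:**
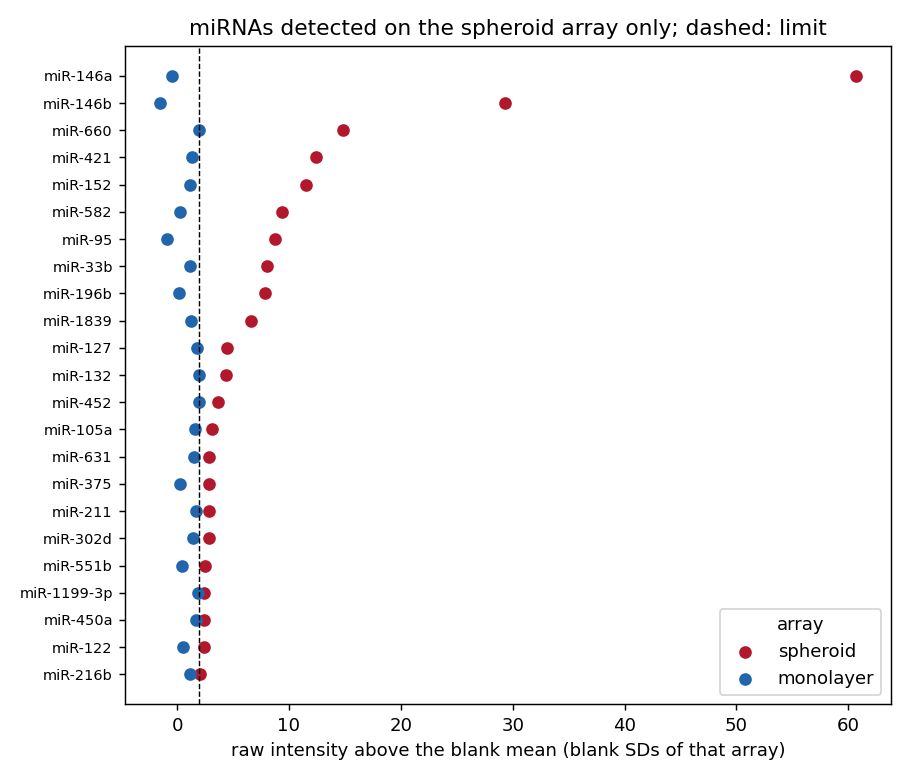
Distance of the raw intensity from the blank mean, in blank SDs of the same array, for the 23 miRNAs detected on the spheroid array only (red, spheroid; blue, monolayer), with the detection limit of 2 SD dashed. miR-146a (60.7) and miR-146b (29.4) lie beyond the other 21, which reach 14.9.

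On the scale used for the whole array, the intensities were background corrected with an added offset of 50, log2 transformed and quantile normalized across all 291 miRNAs. This offset pulls dim spots together. miR-146a had a normalized log2 level of 7.18 in the spheroids and 5.80 in the monolayer, and miR-146b one of 6.59 in the spheroids and 5.75 in the monolayer. With the dimmest detected miRNA of the monolayer as the floor, the lower bounds were at least 2.35-fold for miR-146a, or 1.23 on the log2 scale, and at least 1.56-fold for miR-146b, or 0.64. Of the 23 miRNAs detected in the spheroids only, 1 had a bound of 2-fold or more on this scale, and that was miR-146a. Among the 178 miRNAs with a spot above the limit on both arrays, 2.25% were 2-fold or more higher in the spheroids on this scale.

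miR-155, which represses restraints on cytokine signalling, went the other way. Its raw intensity was 125 in the spheroids, against 174 in the monolayer, 31.2 blank SDs above the blank mean in the spheroids and 37.5 in the monolayer. With the blank mean subtracted, 48.3 intensity units remained in the spheroids and 88.7 in the monolayer. The deposited values were 24.0 in the spheroids and 54.2 in the monolayer, with a blank SD of 0.771 in the spheroids and 1.45 in the monolayer in the same units. Against the blank spots, both arrays thus had a clear spot, the dimmer one in the spheroids.

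The normalized log2 level of miR-155 was 6.62 in the spheroids and 7.28 in the monolayer, a log2 difference of -0.66, and the deposited values gave -1.17. Repeated spots of 6 control probes, 8 per probe, gave log2 differences with a within-probe SD of 0.065 before scaling. The difference of miR-155 exceeded that spot error, which leaves out all variation between cultures. The 6 probes were themselves lower in the spheroids before scaling, by means of -0.14 to -0.35, where miR-155 was at -0.50. With the blank mean subtracted and spike control scaling, miR-155 was at -0.56. Its difference was the 13th lowest of 178 on the normalized scale and the 17th lowest in deposited values. On the normalized scale 2.81% of the 178 miRNAs were 2-fold or more lower in the spheroids and miR-155 was not among them, while in deposited values 14% were and miR-155 was (27% were 2-fold or more apart in either direction). Its column headed as background stood at 0.901 of the spot in the spheroids and 0.624 in the monolayer. The medians over all miRNAs were 0.820 and 0.817. Counted from the lowest of the 291 ratios, miR-155 was 268th in the spheroids and 43rd in the monolayer. The dimmer spot thus had a high ratio in that column, and the part of this in the difference was not tested. How the column was measured is not given in the sources used here, so the ratio is not read as surface background. The 44 blank spots of its block averaged 75.8 ± 1.73 in the spheroids and 82.1 ± 2.06 in the monolayer. The brightest of them reached 78.8 in the spheroids and 87.1 in the monolayer.

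The 3 miRNAs with the nearest normalized difference to miR-155 were miR-29a (-0.68), miR-615 (-0.64) and miR-505 (-0.69). They were within 0.023 of it on the log2 scale, over 2 arrays and 178 miRNAs. The deposited values of miR-505 were 22.9 in the spheroids and 54.3 in the monolayer, and those of miR-615 were 38.7 in the spheroids and 72.3 in the monolayer.

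miR-21, a repressor of PDCD4, had a raw intensity of 12371 in the spheroids, against 12145 in the monolayer. It was the brightest miRNA spot on each array, although other spots were brighter, up to 41139 in the spheroids and 46979 in the monolayer, so its signal was below the top of the recorded range. Being first in rank on each array, it had its difference set by quantile normalization to 0 by construction, and that value carries no information. The deposited values were 6119 in the spheroids and 7365 in the monolayer, a log2 difference of -0.27, the 70th lowest of 178. Before any scaling the signal above the blank mean was 1.02 times as high in the spheroids as in the monolayer. miR-21 held 21.1% of the summed signal of detected miRNAs in the spheroids and 27.9% in the monolayer, and that sum was itself 58252 intensity units in the spheroids and 43268 in the monolayer. Without miR-21 the sum was 45958 in the spheroids and 31208 in the monolayer. The column headed as background stood at 0.591 of the miR-21 spot in the spheroids and 0.786 in the monolayer. With that column not subtracted, the miR-21 spot was thus almost equal before scaling. The signal of the other miRNAs was larger in the spheroids. The part of that column in the miR-21 comparison was not tested.

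The sign of the miR-21 difference depended on how the arrays were scaled. Over the 7 treatments without quantile normalization it was lower in the spheroids in 5 and higher in 2, being 0.027 when left unscaled and 0.34 under spike control scaling. Measured from the median of all 178 miRNAs, it lay below that median in all 7, by a log2 difference of -0.062 in those with normexp and -0.27 in those with the blank mean subtracted. The first of these was within the spot-to-spot SD of 0.065. miR-18b (-0.28), miR-129 (-0.25) and miR-1840 (-0.30) had the deposited differences nearest to that of miR-21.

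**Figure D3:**
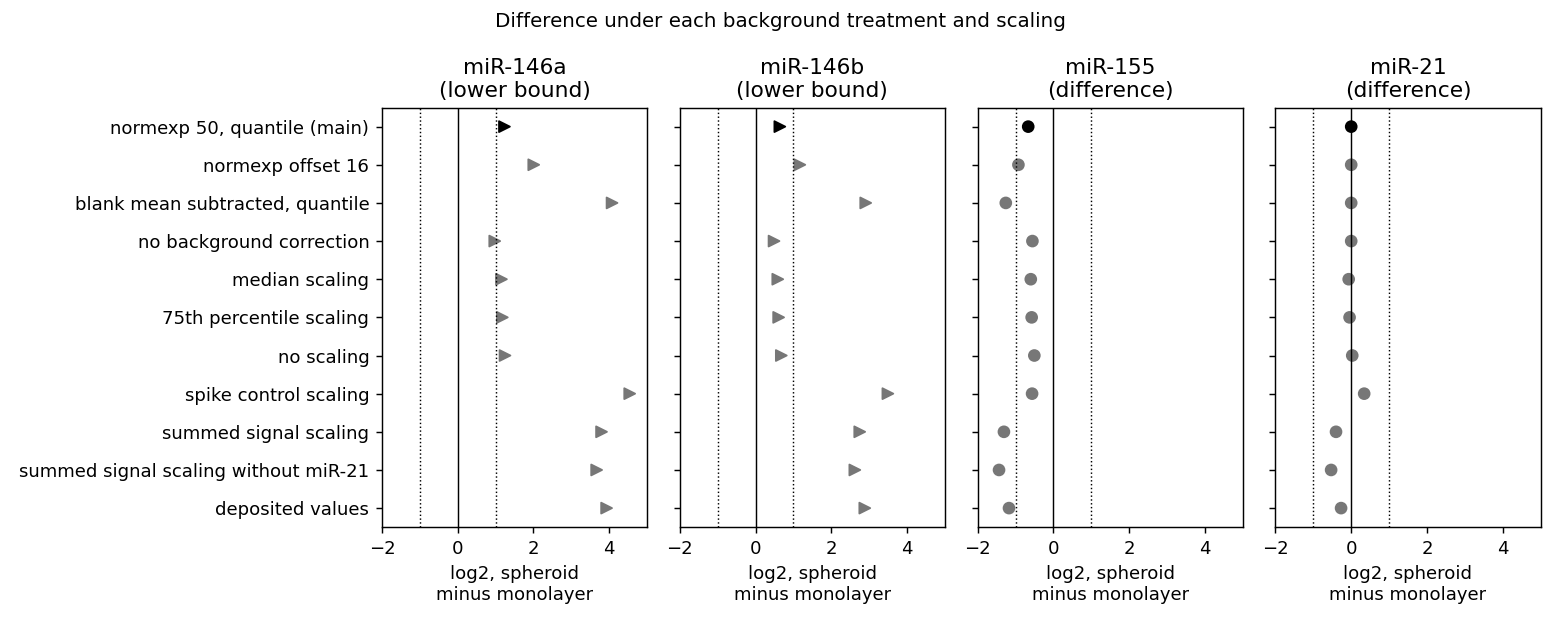
Log2 difference, spheroid minus monolayer, of each miRNA under the main processing (black, top) and the 10 alternatives (grey); arrowheads are lower bounds, circles are differences, and dotted lines mark 2-fold. miR-146a and miR-146b lie above 0 and miR-155 below 0 in every row, and miR-21 lies on both sides of 0.

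The other 3 members kept their direction under the main processing and all 10 alternatives. The lower bound of miR-146a ran between 0.98 and 4.54 on the log2 scale (at least 1.97-fold to at least 23.3-fold) and was 2-fold or more in 10 of 11 settings. That of miR-146b ran between 0.49 and 3.50 and was 2-fold or more in 6 of 11. miR-155 lay between -1.44 and -0.50, 2-fold or more lower in 4 of 11, and it was below the median of all 178 miRNAs in each, by -1.18 to -0.52. The size of each difference thus depended on the background treatment and the scaling, and the sign of these 3 did not under the settings tried. The settings were not separate checks. Those with quantile normalization set each sign by rank, and the others shift either the normexp scale or the blank-subtracted scale by a constant. That signs held across settings, for these and for other miRNAs, was therefore partly fixed in advance. All 4 members in the spheroids and 2 in the monolayer were also detected with limits of the blank mean plus 3 SD and plus 5 SD and with the highest retained blank spot. The same held with 2 limits chosen after seeing the data. These were the highest of 32 negative control spots (83.3 in the spheroids, 91.8 in the monolayer) and the blank spots of the same block. Apart from the same-block limit, each was higher than the main limit, so it could not have added a detected member.

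Other miRNAs described as induced by NF-kB, AP-1 or STAT3 signalling were read as a group of 11, all on the array. On both arrays 9 were detected, 1 (miR-132) in the spheroids only and 1 (miR-212) on neither. Of the 9, 4 were higher and 5 lower in the spheroids on the normalized scale, and 0 of the 9 were 2-fold apart, against 5.06% of all 178 miRNAs. Their median log2 difference was -0.05, as was that of all 178. miR-9, a miRNA induced in human monocytes by bacterial lipopolysaccharide, was highest at 0.75, with deposited values of 54.8 in the spheroids and 18.7 in the monolayer. miR-221 and miR-222, neighbours in 1 primary transcript that repress the mRNA of p27, differed by -0.87 and -0.46. The deposited values of miR-221 were 412 in the spheroids and 641 in the monolayer.

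In deposited values 5 of the 9 were higher and 4 lower. There 3 of the 9 were 2-fold or more higher, namely miR-9, miR-181b and miR-147, the last of which has a role in damping Toll-like receptor responses in mouse macrophages; 12.9% of all 178 were. Their monolayer spots were dim for miR-181b and miR-147, at 2.78 and 4.68 blank SDs above the blank mean. The split of the group depended on scaling, being 5 higher to 4 lower with median, 75th percentile or no scaling and 8 to 1 with the spike controls. The split of all 178 miRNAs moved too, being 80 higher to 97 lower in the main processing, 89 to 89 with median scaling, 93 to 85 with the 75th percentile, 102 to 76 without scaling and 126 to 52 with the spike controls, so nothing particular to the group is read from it. miR-9 was higher in all 11 settings (0.62 to 2.16) and miR-221 lower in all 11 (-0.92 to -0.03), while miR-222 was at 0.30 with the spike controls. On the normalized scale, the members and the rest of this group thus had no common direction. With the spike controls most of them were higher in the spheroids, as were most of all 178 miRNAs.

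**Figure D4:**
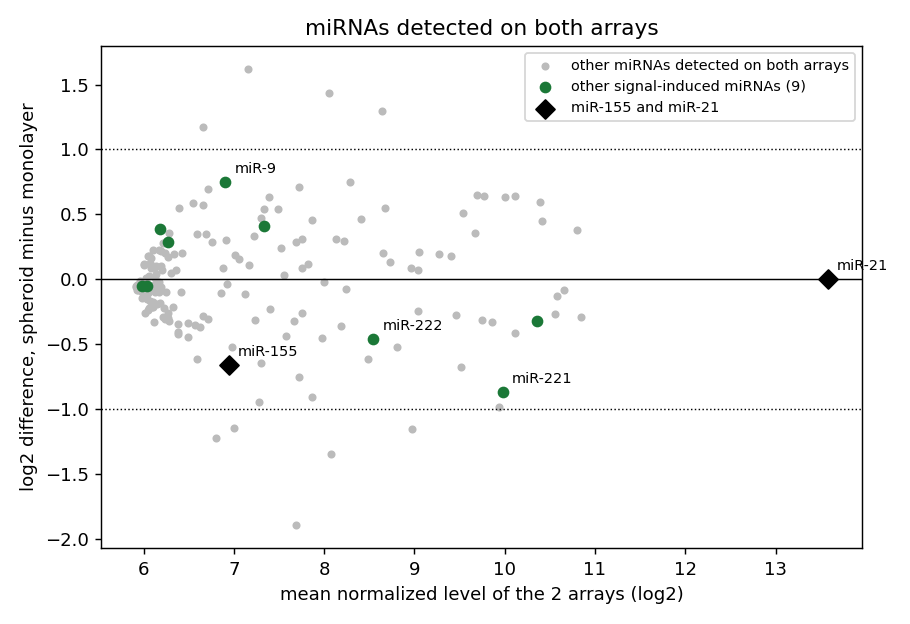
Log2 difference, spheroid minus monolayer, against the mean normalized log2 level for the 178 miRNAs detected on both arrays; green points are the 9 other signal-induced miRNAs, black diamonds miR-155 and miR-21, and dotted lines mark 2-fold. miR-155 lies at -0.66, miR-9 at 0.75 and miR-221 at -0.87, and miR-21 is held at 0 by quantile normalization.

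A second group held miRNAs described as repressing mRNAs of the NF-kB or STAT3 pathways. Of 8 names, 6 were on the array and 5 were detected on both arrays, with 3 higher, 2 lower and 0 of them 2-fold apart on the normalized scale, at a median of 0.38. Over all 178 miRNAs, 80 were higher and 97 lower, 5.06% were 2-fold apart, and the median was -0.05. In the group, the higher ones were miR-15a (0.46) and miR-16 (0.45), which in human cells repress the kinase gene CHUK, and let-7a (0.38), which represses IL6. Each of the 3 was higher in all 11 settings. The lower ones were miR-199 (-0.31) and miR-223 (-0.09), both of which were above 0 with the spike controls. miR-124, known to repress STAT3 in human cells, was detected on neither array.

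Because miR-146a and miR-155 are abundant in leukocytes, markers of other cells were read beside them. Of the 4 leukocyte markers, miR-142 was detected on neither array, at 1.35 blank SDs above the blank mean in the spheroids and 0.80 in the monolayer. miR-223 and miR-150 were dim, miR-223 with deposited values of 4.05 in the spheroids and 5.46 in the monolayer and miR-150 with 2.93 in the spheroids and 3.72 in the monolayer. miR-342 was at 35.9 in the spheroids and 13.3 in the monolayer, a normalized log2 difference of 0.58. The 4 together held 0.148% of the miRNA signal in the spheroids and 0.085% in the monolayer. The erythroid markers miR-144 and miR-451 and the endothelial marker miR-126 were detected on neither array. Of the fibroblast and smooth muscle markers, miR-143 and miR-145 were detected on neither array, while miR-199 (41.1 in the spheroids, 58.3 in the monolayer) and miR-214 (10.0 in the spheroids, 15.0 in the monolayer) were detected on both. These 4 held 0.176% of the signal in the spheroids and 0.277% in the monolayer. The part of other cells in the values of the members was not tested beyond these levels, and in such samples fewer cells of a type and less RNA per cell cannot be told apart.

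All 7 epithelial markers, which bear on the labelled tumour type, were detected on both arrays, and they held 6.43% of the signal in the spheroids and 4.72% in the monolayer. On the normalized scale 6 of the 7 were higher in the spheroids, led by miR-429 (0.75) and miR-141 (0.64), and miR-205 was lower (-1.90). Of the 6, the dim miR-200a was at -0.08 in its lowest setting, and the other 5 were above 0 in all 11. Over all 178 miRNAs detected on both arrays, 80 were higher and 97 lower on the normalized scale. Of these, 2.81% were 2-fold or more lower, miR-205 among them.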

How the data were processed

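MicroRNA levels were measured on 1 array for each of 2 cultures of SNP cells. Total RNA was labelled with Cy5 with a Toray kit, per the labels' protocols. The deposited scanner tables hold spot median intensity at 635 nm for 3200 spots, per the file headers, with neither background subtraction nor normalization between arrays. The deposited value table holds intensity on a linear scale. Each column matched the raw value minus the trimmed blank mean, times 0.498 (spheroids) or 0.611 (monolayer), within 0.0257%. How the authors made it is not given in the sources used here.

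Blank spots were trimmed by 5% at each end, leaving 1268 of 1408, and the detection limit was their mean plus 2 SD. Intensities were corrected with limma 3.58.1 normexp (offset 50) in R 4.3.3, log2 transformed and quantile normalized across the 291 miRNAs. Python 3.11.15, numpy 2.4.6 and pandas 2.3.3 were used for the rest. A miRNA detected on 1 array was given as a lower bound over the dimmest miRNA called detected on the other array, or over its own level there if higher. The spot error was the pooled SD of 6 control probes with 8 spots each (42 degrees of freedom). The processing was run on simulated data in which only bright miRNAs were changed and checked. That run does not cover lower bounds or dim spots, such as those of miR-146a, miR-146b and miR-155. No p-value was computed, since each group had 1 sample, and the number of arrays limits the precision.

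Named miRNAs were the members, the 3 of each list with the largest difference, the 3 nearest in difference to miR-155 and miR-21, and the 3 largest lower bounds among miRNAs detected in the spheroids only. miRNAs sharing a seed with a member were also to be named, but mature sequences were not used here. Other list members are named where a count or a marker needed them, after their values were seen. The members and lists were chosen with earlier results of these data known. Alternatives were other background treatments, scalings, value sources and detection limits.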

Additional observations from a re-analysis of the deposited data

How the results depend on the processing

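Of the 4 members, 1 was 2-fold or more apart in the main processing, by its lower bound. Among members detected on both arrays, 0 were 2-fold or more higher or lower in it. The counts of members in this section include the lower bounds of miR-146a and miR-146b. The split over the 178 miRNAs leaves out those detected on 1 array, so it is not a like comparison. With a normexp offset of 16 the log2 values were 2.01 for miR-146a, 1.17 for miR-146b (both lower bounds, as throughout) and -0.92 for miR-155, with 2 members 2-fold apart. Subtracting the blank mean before quantile normalization, they were 4.08, 2.91 and -1.26, with 3 apart. Without background correction they were 0.98, 0.49 and -0.55, with 0 apart. These 3 settings held miR-21 at 0 by construction. Median scaling gave 1.15 for miR-146a, -0.60 for miR-155 and -0.067 for miR-21, the 75th percentile over all 291 miRNAs gave -0.57 for miR-155, and no scaling gave -0.50. In the order miR-146a, miR-146b, miR-155 and miR-21, the spike controls gave 4.54, 3.50, -0.56 and 0.34 (2 apart), the summed signal of detected miRNAs 3.80, 2.75, -1.31 and -0.40 (3 apart), that sum without miR-21 3.67, 2.62, -1.44 and -0.53 (3 apart), and the deposited values 3.93, 2.89, -1.17 and -0.27 (3 apart). The offset draws dim spots together by its construction, and the causes of the other shifts were not tested. Over all 178 miRNAs the 2-fold split was 4 higher to 5 lower in the main processing, 6 to 8 with an offset of 16, 17 to 34 with the blank mean subtracted, 3 to 4 without background correction, 9 to 3 with median or 75th percentile scaling, 13 to 2 without scaling, 69 to 6 with the spike controls, 20 to 35 and 17 to 43 with the summed signals with and without miR-21, and 23 to 25 in deposited values. The median log2 difference over the 178 was -0.05 in the main processing, 0.09 without scaling, 0.61 with the spike controls and -0.26 with the sum without miR-21. All detection limits tried left the counts of detected members at 4 in the spheroids and 2 in the monolayer. Apart from the same-block limit, they were higher than the main one, so the monolayer count could not have risen under them. No paired analysis was possible because each culture had 1 sample, which also left no replicate to leave out.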
